A study of Homo sapiens with 6 samples.

Results

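The genes described here are 33 parts of the Hippo pathway, found by symbol among the 58735 genes of the count table. They comprise the pathway core (22 genes: the kinase cassette, its upstream regulators and YAP-binding proteins, and the YAP, TAZ and TEAD factors) and 11 genes that YAP and TEAD are known to activate. The genes were chosen by their known role, with their fold changes between 5-FU and control and their spread among the 5-FU libraries already seen. Every value from that comparison is therefore a description of these genes and carries no test in its own right. All 33 had enough counts to enter the test across all genes.

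The cells were HCT-8, a colon cancer line of human origin kept in monolayer culture, and their RNA was sequenced. The control group held 3 samples with no treatment, and the other group held 3 samples treated with 5-FU (5-fluorouracil), a pyrimidine analogue that blocks thymidylate synthase and is incorporated into RNA. The drug was given at the concentration that inhibits by 10% (IC10), a choice the labels tie to continuous infusion in patients. Both groups are the same line, with no other genetic change or agent named. The sources used here give neither the molar dose nor the length of treatment, and they do not say that samples of 1 group came from separate cultures. A p-value then measures the spread among these samples alone, and that spread may be technical.

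The Hippo pathway is a kinase relay that holds back tissue growth. The kinases MST1 and MST2 (genes STK4 and STK3) with the scaffold SAV1 activate LATS1 and LATS2 with their MOB1 partners, and the LATS kinases phosphorylate the coactivators YAP (YAP1) and TAZ (WWTR1), which are then held in the cytoplasm by 14-3-3 proteins or degraded. Unphosphorylated YAP and TAZ enter the nucleus, bind the DNA-binding TEAD factors and switch on genes such as CTGF, CYR61 and ANKRD1. In intestinal epithelium YAP is known for its part in regeneration after injury and in colorectal tumours. Most of this regulation acts on proteins, by phosphorylation and location, which RNA counts do not measure.

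TEAD factors recognise the letters CATTCC, read on either strand. Promoter sequence from RefSeq (build GRCh38.p14) was searched over the 250 bases before each start site, and 26 of the 33 genes had an entry. CYR61, STK3, TEAD1, TEAD4, CRIM1, DLC1 and ARHGEF17 had none and were not searched. For some core genes the RefSeq start lay far from the gene start in the count table. The distance was 166769 bases for VGLL4, 61925 for AMOTL1, 33441 for WWTR1 and 1831 for LATS1. Among the other published targets searched below it was 706280 for RBMS3. For such genes the region before the count-table start was not searched. CATTCC was found in 3 of 7 target promoters (CTGF, ANKRD1 and NUAK2) and in 2 of 19 core promoters (YAP1 and PTPN14). Among all 27305 promoters of that length 11.9% held it, and 0.96% held at least 2 matches. All 3 target promoters held at least 2. PTPN14, which rose, and YAP1, which fell, held 1 each. Of 8 searched promoters of other published YAP/TAZ targets, 2 held the letters. The target genes were chosen as known YAP and TEAD targets, so their share is a description and no test. The 3 target promoters are printed because these genes all had more RNA after 5-FU, with the matches in capitals. The printed stretch stops at the gene start in the count table.

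CTGF, chr6:131951374-131951622, minus strand: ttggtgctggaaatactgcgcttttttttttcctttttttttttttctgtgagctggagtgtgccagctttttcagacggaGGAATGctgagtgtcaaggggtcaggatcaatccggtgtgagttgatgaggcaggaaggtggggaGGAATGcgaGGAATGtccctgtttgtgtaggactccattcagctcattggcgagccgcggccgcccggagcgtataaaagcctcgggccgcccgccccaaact
ANKRD1, chr10:90921277-90921337, minus strand: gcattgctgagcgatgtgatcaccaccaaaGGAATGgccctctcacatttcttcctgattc
NUAK2, chr1:205321792-205321995, minus strand: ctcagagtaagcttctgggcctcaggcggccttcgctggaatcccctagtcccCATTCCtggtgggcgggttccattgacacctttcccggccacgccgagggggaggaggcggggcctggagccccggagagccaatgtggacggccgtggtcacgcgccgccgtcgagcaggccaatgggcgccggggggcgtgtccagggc

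The CTGF matches began 169, 104 and 95 bases before the RefSeq start. In ANKRD1 they began 220 and 128 bases before it and in NUAK2 197 and 18 bases before it, and the nearer match of each lay past the printed stretch. The letters TGANTCA of the AP-1 site, searched on both strands, were found in ANKRD1 and MOB1B among the members and in 6.6% of all promoters. The CArG box, the SRF site, was found in no searched window of a member and in 1.1% of all promoters. CYR61 had no window to search. A match is a run of letters and not a measured binding site.

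Gene counts summed to between 18459939 and 23495607 per library. Mitochondrial genes took 4.8% ± 0.12 (SD, n = 3) of control counts and 26.7% ± 1.59 of 5-FU counts. Of 19771 genes tested, 70.2% passed an adjusted p of 0.05 with edgeR's quasi-likelihood test (36.3% higher and 33.9% lower after 5-FU), and the median log2 fold change was 0.09. Upper-quartile scaling added 0.36 to that median and turned 7171 higher and 6706 lower genes into 9602 and 4614, so log2 differences of that size depend on the scaling. Summed CPM (counts scaled to the library total with TMM factors) of 11 colorectal epithelial markers ranged from 4767 to 6595 in control and from 3527 to 4492 in 5-FU libraries, with CDX1 under 1 CPM throughout; KRT8, a simple-epithelial keratin, was at 2827 ± 517 and 1905 ± 403 CPM and makes up much of that sum. Of the 10 epithelial markers tested, 2 were called higher (CEACAM5 and KRT20) and 4 lower (KRT8, LGALS4, CDX2 and EPCAM); the KRT8 call was lost in 6 of 18 other settings. The sum of 9 fibroblast markers ranged from 16.1 to 20.6 and from 34.7 to 65.6 CPM, with DCN and LUM at 0 in all libraries, 7 of 9 under 1 CPM, and COL1A1 alone at 15.2 ± 3.06 and 42.4 ± 16.1. Endothelial markers (6 genes, 4 under 1 CPM in all libraries) summed to 2.37 to 3.30 and 4.21 to 5.71 CPM and leukocyte markers (7 genes, 5 under 1 CPM) to 10.7 to 11.4 CPM in both groups. Their leading genes PECAM1 and CD14 were at 1.34 ± 0.29 and 6.64 ± 0.46 CPM in control and 2.13 ± 0.66 and 6.10 ± 0.90 CPM after 5-FU. The part of these shifts in the values below was not tested, and in bulk RNA fewer expressing cells and less RNA per cell cannot be told apart.

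Among the 33 genes, 13 were called higher and 10 lower after 5-FU, and the libraries of the groups did not overlap for 25, where 74.3% of all tested genes did not overlap. The 23 called of 33 stand beside the 70.2% called among all tested genes, and nothing is read from that count. The core and the targets lay on opposite sides of the median. In the core 6 genes were higher, 9 lower and 7 did not pass, with a median log2 fold change of -0.27, or -0.36 relative to all tested genes. Of the targets, 7 were higher, 1 was lower and 3 did not pass, with a median of 0.69, or 0.60 above all tested genes. Both relative medians stood at those values, to 2 decimals, with upper-quartile factors and plain library totals, but not under other filters and scales: with a mean count of at least 50 they were -0.07 for the core and 0.92 for the targets, and on log2(FPKM + 1) -0.15 and 0.80. The counts called moved to 17 higher and 5 lower of the 33 with upper-quartile factors and to 9 and 12 on log2(FPKM + 1). With no low-count filter many scarce genes entered, the median of all genes was 0.63 and the target median lay 0.08 below it, while targets still exceeded the core by 0.96. LATS2, PTPN14 and AJUBA sit in both roles, being regulators that YAP is known to induce; counted as targets, they gave medians of -0.30 for the core and 0.43 for the targets.

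**Figure D1:**
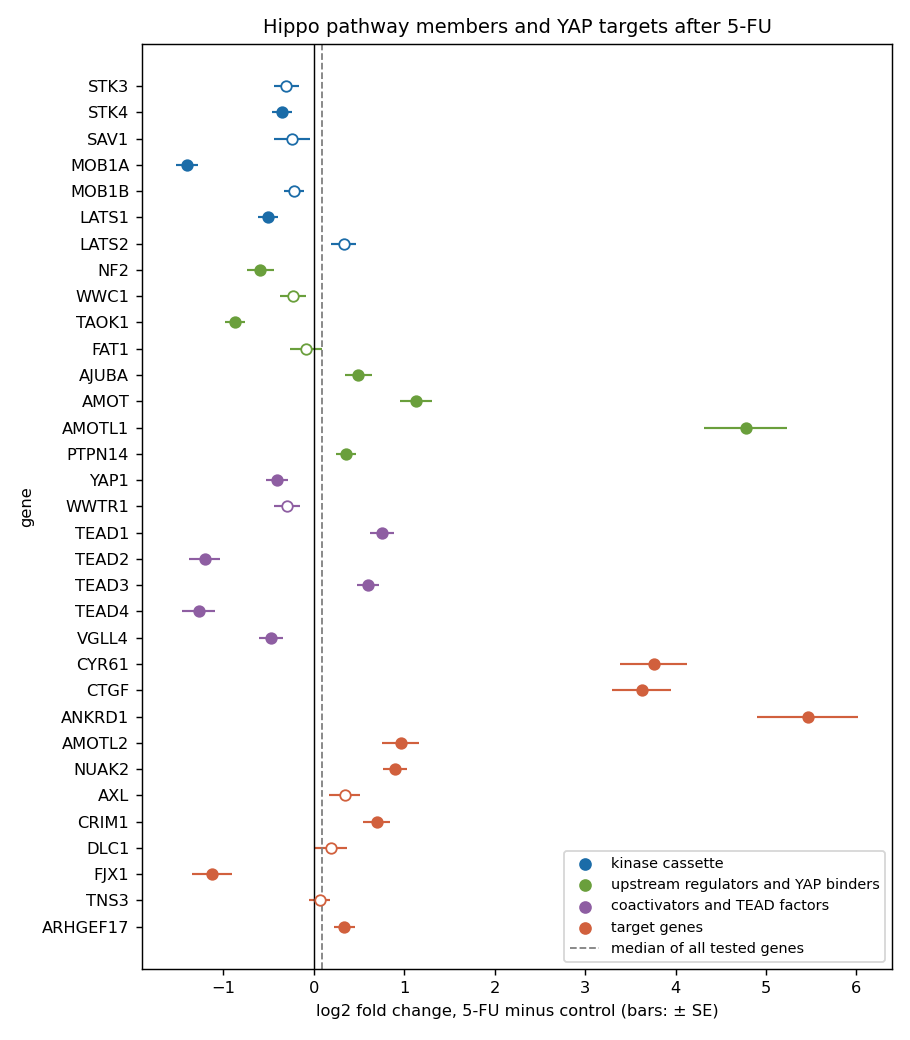
Log2 fold change (5-FU minus control, edgeR, 3 libraries per group, bars ± SE) of the 33 genes by role; filled points passed an adjusted p of 0.05 and open points did not, and the dashed line is the median of all tested genes at 0.09. The points range from -1.40 (MOB1A) to 5.46 (ANKRD1), and the 4 highest are CYR61, CTGF, ANKRD1 and AMOTL1.

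In the kinase cassette 3 of 7 genes fell (MOB1A, LATS1 and STK4), 0 rose and 4 did not pass, beside 33.9% of all tested genes lower and 36.3% higher. With no adjustment, 1 gene (LATS2) was higher; DESeq2 called 0 higher and 5 lower, limma-voom called 0 higher, and upper-quartile factors gave 1 higher and 1 lower. MOB1A, at chr2:74152528-74178898, encodes the more abundant MOB1 adaptor, which LATS kinases need for activation. It was at 272, 250 and 264 CPM in control and at 88.2, 104 and 105 CPM in 5-FU libraries. All 3 treated libraries were far below all 3 controls, at 0.38 times the control mean (log2 fold change -1.40 ± 0.12 SE).

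MOB1B, its paralogue, was at 56.7, 60.6 and 53.4 CPM in control and 46.5, 49.8 and 50.2 CPM after 5-FU, a log2 difference of -0.22 ± 0.11 that did not pass. The pair was therefore compared within each library per gene length, in FPKM, where the scaling of the library cancels. MOB1A stood at 6.31 ± 0.60 times MOB1B in control (SD, n = 3) and 2.77 ± 0.15 times after 5-FU. The lowest control ratio was 5.62 and the highest 5-FU ratio 2.86, so the balance of the MOB1 paralogues differed beyond the spread between libraries. Only 1.4% of MOB1A and 2.2% of MOB1B 50-base stretches also occurred in another gene, so few reads could be shared.

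LATS1 and LATS2, the kinases that phosphorylate YAP and TAZ, had differences of opposite sign, of which only that of LATS1 passed. LATS1 was at 55.0, 51.7 and 51.2 CPM in control and 36.5, 36.0 and 38.5 after 5-FU (-0.51 ± 0.11). LATS2 was at 92.8, 71.0 and 71.7 CPM in control and 85.2, 108 and 103 after 5-FU (0.33 ± 0.14), and its groups overlapped because control replicate 1 was above 5-FU replicate 1. Within libraries, the FPKM of LATS2 was 2.30 ± 0.27 times that of LATS1 in control and 4.13 ± 0.51 times after 5-FU, with no overlap between 2.61 and 3.62. The LATS1 fall did not pass with upper-quartile factors.

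The upstream kinase genes showed small differences. STK4 was at 91.1, 86.1 and 83.6 CPM and fell to 73.1, 62.6 and 68.9 (-0.35 ± 0.11), a call lost with plain library totals, with a mean count of at least 50 and without 5-FU replicate 2, and at 0.01 with upper-quartile factors. STK3 was at 24.3, 24.7 and 24.4 CPM in control and at 17.2, 19.0 and 23.2 CPM after 5-FU (-0.30 ± 0.14), a difference that did not pass. The FPKM ratio of STK4 to STK3 was 4.93 ± 0.24 in control and 4.86 ± 0.92 after 5-FU, a difference smaller than its spread. SAV1, the scaffold that joins these kinases to LATS, was the most variable gene of the cassette in both groups, at 74.2, 51.7 and 61.4 CPM in control and 38.5, 69.3 and 51.0 after 5-FU, with groups that overlapped. SAV1 shares 14.9% of its exonic bases with the opposite-strand gene ATL1.

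Among 8 upstream regulators and YAP-binding proteins, 4 rose, 2 fell and 2 did not pass, beside 36.3% higher and 33.9% lower among all tested genes. Their median log2 fold change was 0.14, only 0.04 above that of all tested genes. Both that fell act above the kinases. TAOK1, a kinase that phosphorylates MST1 and MST2, was at 211, 205 and 203 CPM in control and 114, 111 and 113 after 5-FU (-0.87 ± 0.11), with libraries of a group almost level. NF2 (merlin), the membrane protein that recruits LATS, was at 96.2, 81.9 and 95.6 CPM and then 47.5, 71.7 and 62.2 (-0.59 ± 0.15), a call lost with upper-quartile factors and with a mean count of at least 50.

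WWC1 (KIBRA), which works with NF2, and FAT1, an atypical cadherin, did not pass. WWC1 was at 287, 207 and 226 CPM in control and 191, 220 and 203 after 5-FU (-0.23 ± 0.14), and the groups overlapped. FAT1 had the highest FPKM of all 33 genes in both groups, 372 ± 19.7 in control and 317 ± 13.4 after 5-FU. Its CPM was 5527, 6271 and 5608 in control and 5955, 5207 and 5256 after 5-FU (-0.08 ± 0.17).

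The 4 that rose encode proteins that bind YAP or restrain the LATS kinases. AMOTL1, an angiomotin that tethers YAP at junctions, was almost silent in control, with 5, 4 and 2 counts, and had 82, 137 and 66 counts after 5-FU. Its CPM went from 0.22, 0.18 and 0.10 to 4.18, 7.15 and 3.12, 28.7 times the control mean (4.77 ± 0.46). The size of that ratio rests on 11 control counts. It remained the gene with the lowest FPKM of the 33 after 5-FU, 0.45 ± 0.20.

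AMOT, the founding angiomotin, was at 4.44, 4.29 and 5.03 CPM and rose to 10.95, 10.01 and 9.23 CPM (1.13 ± 0.18), with the groups well apart. AJUBA, a LIM protein that binds and inhibits LATS kinases, was at 118, 163 and 125 CPM and rose to 168, 209 and 194 (0.49 ± 0.15), with control replicate 2 just below 5-FU replicate 1. PTPN14, a phosphatase that holds YAP in the cytoplasm, was at 101, 110 and 97.9 CPM and rose to 131, 132 and 133 (0.36 ± 0.11). The AJUBA and PTPN14 calls were each lost in 7 of 18 other settings, including DESeq2 and the settings without control replicate 1 or 3; without 5-FU replicate 2 the AJUBA call was lost too.

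Of the YAP, TAZ and TEAD genes and VGLL4, 2 of 7 rose (TEAD1 and TEAD3), 4 fell (YAP1, TEAD2, TEAD4 and VGLL4) and WWTR1 did not pass. Among all tested genes 36.3% were higher and 33.9% lower. YAP1, at chr11:102110461-102233423, was at 277, 316 and 283 CPM and fell to 218, 218 and 224 (-0.41 ± 0.12). All 5-FU libraries were below all controls and within a narrow band, yet YAP1 was no longer called with upper-quartile factors (-0.05) or with a mean count of at least 50. WWTR1 was at 26.7, 28.4 and 21.5 CPM in control and 19.8, 20.2 and 22.3 after 5-FU (-0.30 ± 0.14), with overlapping groups. In FPKM YAP1 was 15.4 ± 1.97 times WWTR1 in control and 14.2 ± 0.70 times after 5-FU, a difference within the spread of the controls. VGLL4, which competes with YAP for TEAD, was at 45.8, 34.3 and 40.7 CPM and fell to 29.6, 27.4 and 29.9 (-0.48 ± 0.13), a call lost in the same settings as YAP1. VGLL4 shares 23.7% of its exonic bases with opposite-strand genes, among them ATG7, the largest share among the 33. Some exonic bases were shared with another gene in 18 of the 33. Opposite-strand shares were 10% for YAP1, 9.7% for ARHGEF17, 9.4% for WWTR1 and 8.3% for CTGF.

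The TEAD family changed in composition. TEAD1, at chr11:12674591-12944483, was at 284, 253 and 259 CPM and rose to 406, 494 and 446 (0.76 ± 0.13). TEAD3, at chr6:35473597-35497076, was at 41.5, 35.8 and 36.3 CPM and rose to 54.5, 63.0 and 53.9 (0.59 ± 0.12). For both, every 5-FU library was above every control.

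TEAD2 and TEAD4 moved the other way. TEAD2, at chr19:49340595-49362457, was at 40.6, 37.0 and 49.1 CPM and fell to 15.2, 22.4 and 17.2 (-1.21 ± 0.17). TEAD4, at chr12:2959330-3040673, was at 38.0, 31.8 and 41.2 CPM and fell to 11.4, 18.9 and 15.7 (-1.27 ± 0.18). Neither pair of groups overlapped, and all 4 TEAD calls held in all 18 other settings run.

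In FPKM, which allows levels of different genes to be compared, TEAD1 led in both groups, at 26.8 ± 1.99 in control and 41.0 ± 5.18 after 5-FU. The order behind it changed. In control TEAD4 (16.9 ± 2.43), TEAD2 (14.7 ± 2.37) and TEAD3 (12.9 ± 1.21) followed. Neighbours in that order did not differ beyond their spread between libraries. Within each control library TEAD4 was nonetheless above TEAD2, at 17.5 against 14.3, 14.2 against 12.6 and 19.0 against 17.3. The ratio of TEAD3 to TEAD2 was 0.999, 0.947 and 0.722 in the control libraries. After 5-FU TEAD3 (17.6 ± 1.90) stood clear of TEAD4 (6.36 ± 1.73) and TEAD2 (5.78 ± 1.31), which did not differ beyond their spread.

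As a share of the summed FPKM of the 4 genes, TEAD1 went from 37.6% ± 2.23 to 58.0% ± 1.06 and TEAD3 from 18.1% ± 1.3 to 24.99% ± 1.3. TEAD2 went from 20.6% ± 2.12 to 8.10% ± 0.70 and TEAD4 from 23.6% ± 1.51 to 8.87% ± 1.28. No control share overlapped a 5-FU share for any of the 4, and shares within a library do not depend on its scaling. The summed FPKM was 71.4 ± 6.48 in control and 70.8 ± 9.98 after 5-FU, a difference far inside the spread. The ratio of TEAD1 to TEAD4 was 1.60 ± 0.19 in control and 6.65 ± 1.10 after 5-FU. TEAD3 and TEAD4 share 0.2% and 0.3% of their 50-base stretches with each other, and TEAD1 0.0% with any gene, while TEAD2 shares 7.0% of its stretches and 10.7% of its exonic bases with CD37 on the opposite strand.

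**Figure D2:**
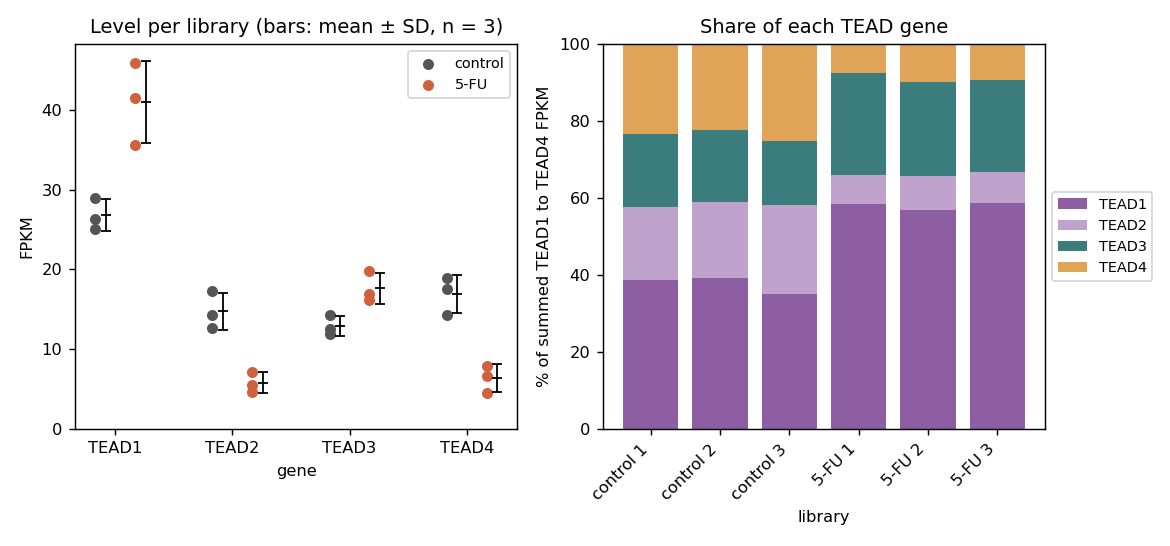
Left, FPKM of TEAD1 to TEAD4 in each of 3 control and 3 5-FU libraries, with mean ± SD; right, each gene's percentage of the summed FPKM of the 4 genes by library. TEAD1 makes up 35.1% to 39.2% of the sum in control libraries and 56.8% to 58.8% in 5-FU libraries, while TEAD2 and TEAD4 shrink in all 3 treated libraries.

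Among the 11 target genes, the 3 most widely used readouts of YAP activity had the largest differences. CTGF (now CCN2), at chr6:131948176-131951373, encodes a secreted matricellular protein and is the gene whose promoter held 3 matches to the TEAD letters. It was at 32.2, 20.4 and 13.5 CPM in control and rose to 167, 329 and 322 CPM, 12.4 times the control mean (3.63 ± 0.33). CYR61 (now CCN1), at chr1:85580761-85583962, is a related secreted protein. It was at 28.7, 19.4 and 17.2 CPM and rose to 135, 447 and 302 CPM, 13.5 times the control mean (3.76 ± 0.37).

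ANKRD1, at chr10:90912096-90921276, encodes an ankyrin-repeat protein of muscle and injured tissue. It was at 3.77, 2.49 and 1.38 CPM and rose to 34.2, 177 and 128 CPM, 44.5 times the control mean (5.46 ± 0.56). For all 3 genes even the lowest 5-FU library was above the highest control library, and the calls held in all 18 other settings. With each library left out in turn, the log2 fold change of ANKRD1 ranged from 4.98 to 5.91, that of CYR61 from 3.33 to 4.12 and that of CTGF from 3.34 to 3.97. In FPKM, CTGF was 1.18, 1.11 and 0.83 times CYR61 in control libraries and 1.299, 0.773 and 1.118 times after 5-FU, ranges that overlapped; the 3 values of a group are too spread to show an equal proportion.

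Another 4 target genes rose by smaller amounts. AMOTL2, an angiomotin that YAP induces and that binds YAP in return, was at 125, 149 and 97.3 CPM and rose to 170, 303 and 250 (0.96 ± 0.21). NUAK2, a kinase of the AMPK-related family whose promoter held 2 matches, was at 41.5, 37.5 and 42.1 CPM and rose to 63.7, 85.6 and 76.1 (0.90 ± 0.13). CRIM1, a transmembrane protein that binds BMPs, was at 134, 152 and 142 CPM and rose to 183, 242 and 269 (0.69 ± 0.15). In all of these the groups were apart. ARHGEF17, a guanine nucleotide exchange factor, was at 92.6, 84.5 and 87.4 CPM and rose to 107, 123 and 105 (0.34 ± 0.11), a call lost in 10 of 18 other settings, among them those without any 1 of the 3 controls and without 5-FU replicate 2.

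Not all targets followed. FJX1, a secreted relative of the Drosophila FJ protein, was at 46.2, 27.4 and 44.9 CPM and fell to 17.01, 23.2 and 14.2 (-1.12 ± 0.22), with the lowest control just above the highest 5-FU library. The receptor kinase AXL was at 20.1, 17.8 and 17.3 CPM in control and 20.3, 29.8 and 19.7 after 5-FU (0.34 ± 0.17), and 5-FU replicate 2 alone was well above the controls. The tumour suppressor DLC1 was at 10.6, 7.91 and 7.60 CPM and then 10.5, 9.86 and 9.47 (0.19 ± 0.18), and the adhesion protein TNS3 at 166, 139 and 149 and then 165, 158 and 152 (0.07 ± 0.12). These 3 had overlapping groups and did not pass, which does not show that their levels were alike.

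**Figure D3:**
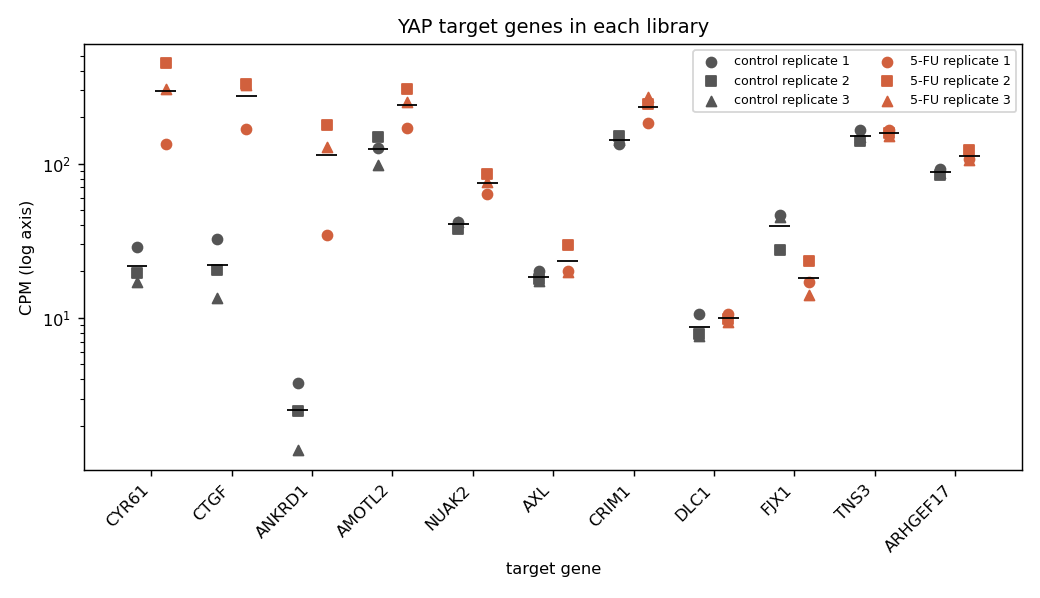
CPM (log axis) of the 11 target genes in each of 6 libraries, grey for control and orange for 5-FU, with the marker shape giving the replicate number and the bar the group mean. ANKRD1, CTGF and CYR61 lie above every control in all 3 treated libraries, with 5-FU replicate 1 the lowest, and FJX1 lies below.

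The target genes also differed more between libraries of 1 group than the core did. The median SD of log2 CPM over 3 libraries was 0.26 in control and 0.33 in 5-FU for targets and 0.12 and 0.12 for the core. It was 0.20 and 0.20 for all tested genes, which include scarce ones. AMOT had the same SD as the core median, 0.12 in both groups. Among the 10510 genes with at least 10 CPM in 5-FU libraries, that was above 41.8% in control and 37.8% in 5-FU. With 3 libraries an SD is known only loosely: without 5-FU replicate 1 or 2 the target median was 0.16 or 0.19, and without control replicate 1 or 2 it was 0.12 or 0.15. In the 5-FU group ANKRD1 had an SD of 1.25, CYR61 0.88 and CTGF 0.56. Among 10510 genes with a mean of at least 10 CPM in 5-FU libraries, ANKRD1 ranked above nearly all, CYR61 above 99.9% and CTGF above 98.8%. Their SDs in control were 0.70, 0.38 and 0.62. Among the same 10510 genes, CYR61 ranked above 94.7% and CTGF above 99.2% in control. ANKRD1 was at only 2.55 CPM there, so its control rank is not given. The order of libraries and these ranks were examined after the values had been seen.

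The ratio of the highest to the lowest 5-FU library was 5.18 for ANKRD1, 3.31 for CYR61 and 1.97 for CTGF. In all 3 the lowest was 5-FU replicate 1 and the highest replicate 2, but for CTGF replicates 2 and 3 were nearly level, at 329 and 322 CPM. Among the 33 genes replicate 1 was the lowest 5-FU library for 20 and replicate 2 the highest for 18, against 37.3% and 28.8% of all tested genes; in the core alone the counts were 14 and 10 of 22. Replicate 1 also had the highest mitochondrial share of the treated libraries, at 28.5% where the others were at 25.5% and 26.2%, and the part of that in the order was not tested. Controls had an order of their own for these genes, with replicate 3 the lowest and replicate 1 the highest for CTGF, CYR61 and ANKRD1.

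The steadiest members lay in the core. In 5-FU libraries PTPN14 varied less than all but 0.2% of the 10510 genes, TAOK1 less than all but 1.6% and YAP1 less than all but 2.0%. The core genes with the widest spread after 5-FU were AMOTL1, with an SD of 0.59, and SAV1, above 95.7% of genes. AMOTL2, a target that also binds YAP, was likewise above 95.7%.

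**Figure D4:**
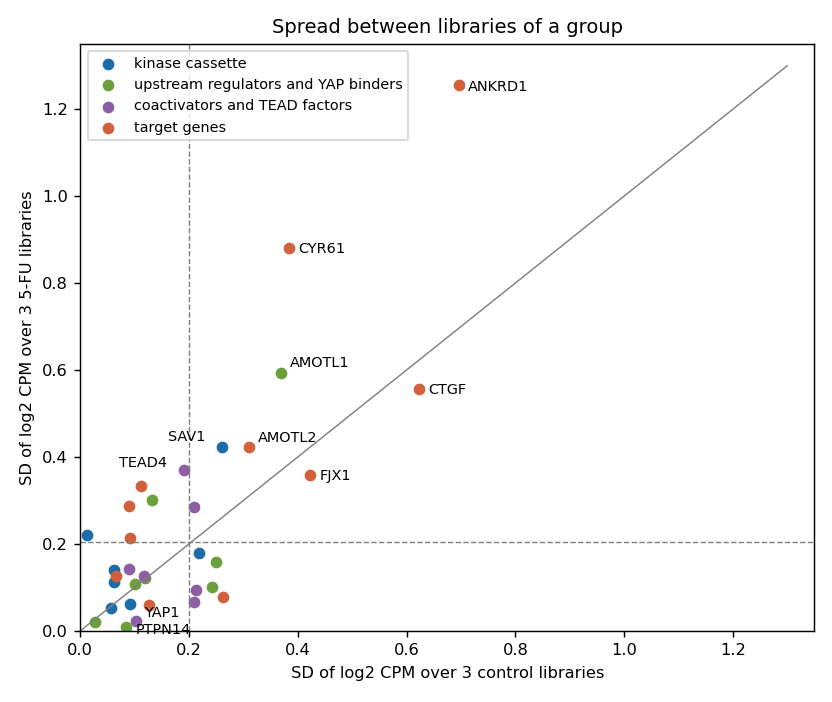
SD of log2 CPM over 3 control libraries (x) and over 3 5-FU libraries (y) for the 33 genes by role; dashed lines are the medians of all tested genes (0.20 on both axes) and the diagonal marks equal spread. ANKRD1 and CTGF lie farthest out on the x axis and ANKRD1 and CYR61 on the y axis, and YAP1 and PTPN14 lie close to 0 on the y axis.

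A published YAP/TAZ target signature of 22 genes has 11 that are not among the 33. Of the 10 tested, 7 rose, 0 fell and 3 did not pass, beside 36.3% higher and 33.9% lower among all tested genes. Their median log2 fold change was 0.53, 0.43 above all tested genes. With no low-count filter and with DESeq2 that median lay 0.26 below the median of all genes. At an unadjusted p under 0.05 edgeR also had 0 lower, while DESeq2 called 4 higher and 1 lower and had 2 lower unadjusted, and log2(FPKM + 1) gave 3 higher and 1 lower. GADD45A, a growth-arrest gene induced by DNA damage, was at 50.9, 69.5 and 48.8 CPM and rose to 121, 193 and 171 (1.52 ± 0.19). CCDC80, a secreted matrix protein, was at 6.68, 9.17 and 6.81 CPM and rose to 24.3, 18.7 and 19.6 (1.47 ± 0.18). DOCK5, a Rac exchange factor, was at 151, 119 and 118 CPM and rose to 224, 289 and 242 (0.96 ± 0.14). RBMS3, an RNA-binding protein, had 1 count over all controls and 37 over the 5-FU libraries, a rate ratio of 39.9 with an exact 95% interval of 6.74 to 1620 that covers counting error only.

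A further list held 23 other kinases and activators of the pathway. Of 20 tested, 7 rose, 1 fell and 12 did not pass, beside 36.3% higher and 33.9% lower among all tested genes. TNIK and MAP4K1, kinases of the MAP4K class that can phosphorylate LATS, rose from low levels, TNIK from 4.49 ± 0.40 to 18.9 ± 2.26 CPM (2.07 ± 0.17) and MAP4K1 from 1.28 ± 0.10 to 4.65 ± 0.65 CPM (1.85 ± 0.24). MAP4K4, of the same class, fell from 226 ± 28.7 to 124 ± 17.1 CPM (-0.87 ± 0.14). RASSF6, an MST-binding protein, rose from 8.40 ± 1.56 to 20.1 ± 2.57 CPM (1.26 ± 0.18). DESeq2 called 5 higher and 2 lower on this list and upper-quartile factors 13 and 1.

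STRIPAK, the phosphatase complex that removes the activating phosphate from MST kinases, had 12 of 18 tested genes lower (33.9% of all tested genes were), 0 higher and a median of -0.55; edgeR unadjusted, DESeq2 and limma-voom gave 0, 0 and 0 higher, but upper-quartile factors gave 4 higher and 8 lower. Its scaffold subunit PPP2R1A fell from 253 ± 17.1 to 107 ± 12.6 CPM (-1.24 ± 0.13). The adaptor PDCD10 fell from 58.6 ± 3.09 to 22.8 ± 4.84 CPM (-1.36 ± 0.15) and the kinase STK26 from 46.5 ± 2.42 to 20 ± 2.85 CPM (-1.21 ± 0.13). STK24 also fell, by 1.11 ± 0.12 on the log2 scale, but shares 63.5% of its exonic bases with opposite-strand genes, and its reads cannot be assigned from the tables alone.

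The list on YAP retention and turnover (14-3-3 proteins, parts and kinases of the ubiquitin ligase that degrades YAP, and 2 deubiquitinases, USP9X and OTUB2) had a median of -0.87, with 11 of 15 genes lower, 3 higher and 1 not passing, where 33.9% of all tested genes were lower. Outside the 14-3-3 genes the directions were mixed. The 3 higher were BTRC (0.36 ± 0.13), CSNK1D (0.31 ± 0.11) and CSNK1E (0.72 ± 0.12). FBXW11 (-0.87 ± 0.12), CUL1 (-1.06 ± 0.12), SKP1 (-0.76 ± 0.15) and USP9X (-0.37 ± 0.12) were lower, and OTUB2 did not pass. DESeq2 called 1 higher and 12 lower on this list. All 7 genes for 14-3-3 proteins, which retain phosphorylated YAP in the cytoplasm along with many other clients, fell; SFN was not called in some other settings, upper-quartile factors among them, and the other 6 were called in all 18. YWHAE was at 727, 675 and 797 CPM and fell to 125, 169 and 189 (-2.19 ± 0.17), a larger fall than that of any of the 33 genes. YWHAH fell from 156 ± 32.1 to 45.3 ± 11 CPM (-1.78 ± 0.20), YWHAB from 388 ± 28.6 to 142 ± 24.0 (-1.45 ± 0.15) and YWHAG from 352 ± 19.5 to 143 ± 22.7 (-1.30 ± 0.14). In each of these the treated libraries lay below all controls.

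Apical polarity and junction regulators, which feed into the pathway from the cell surface, were mixed. Of 19 genes 3 were higher, 8 lower and 8 did not pass, beside 36.3% higher and 33.9% lower among all tested genes. Upper-quartile factors gave 10 higher and 4 lower. LLGL1, a basolateral polarity protein, fell by 0.99 ± 0.11, CRB3, an apical determinant, by 0.88 ± 0.14 and PARD3 by 0.73 ± 0.11 on the log2 scale, and PARD6B rose by 0.75 ± 0.12. Of 7 tested cofactors that work with YAP or TEAD at promoters, 3 fell and 0 rose, beside 33.9% lower and 36.3% higher among all tested genes. Those that fell were MED1 (-1.51 ± 0.12), NCOA2 (-0.43 ± 0.11) and CDK9 (-0.43 ± 0.12). For the cofactors DESeq2 gave 0 higher and 4 lower, edgeR 0 higher and 3 lower unadjusted, and upper-quartile factors 2 higher and 1 lower.

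AP-1 factors, which bind enhancers together with TEAD, had 6 of 11 tested genes higher and 1 lower, with a median of 0.72, beside 36.3% higher and 33.9% lower among all tested genes. ATF3, a stress-induced member, was at 6.59, 14.2 and 11.9 CPM and rose to 82.1, 85.8 and 93.5 (3.00 ± 0.22), with treated libraries nearly level. FOSB rose from 2.19 ± 0.22 to 15.5 ± 4.77 CPM (2.82 ± 0.24), JUN from 49.3 ± 11.6 to 159 ± 46.7 (1.69 ± 0.21) and FOSL2 from 96.1 ± 4.88 to 172 ± 22.4 (0.84 ± 0.13). The order of 5-FU libraries differed between these genes. JUN was highest in replicate 2, at 213 CPM against 128 and 136, and so was FOSL2, at 196 against 168 and 152. FOSB was lowest in replicate 2, at 11.5 CPM against 14.2 and 20.8.

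SRF and its partners, which share CTGF, CYR61 and ANKRD1 as known targets, had 5 of 15 tested genes higher and 4 lower (9 and 0 with upper-quartile factors). Among all tested genes 36.3% were higher and 33.9% lower. SRF itself fell by 0.54 ± 0.11. The actin-binding genes CALD1 and TPM1 rose by 2.47 ± 0.19 and 1.56 ± 0.17, and ACTA2 rose by 2.05 ± 0.27 from 1.42 ± 0.49 CPM. TPM1 shares 21.4% and ACTA2 30.1% of exonic bases with opposite-strand genes. In the CCN family, apart from CTGF and CYR61, WISP2 rose by 2.29 ± 0.57 and WISP3 by 1.99 ± 0.51, both from means under 1 CPM. Over all 9 lists, 33 of 117 tested genes rose and 39 fell, beside 36.3% and 33.9% of all tested genes, so the lists together held both directions.

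**Figure D5:**
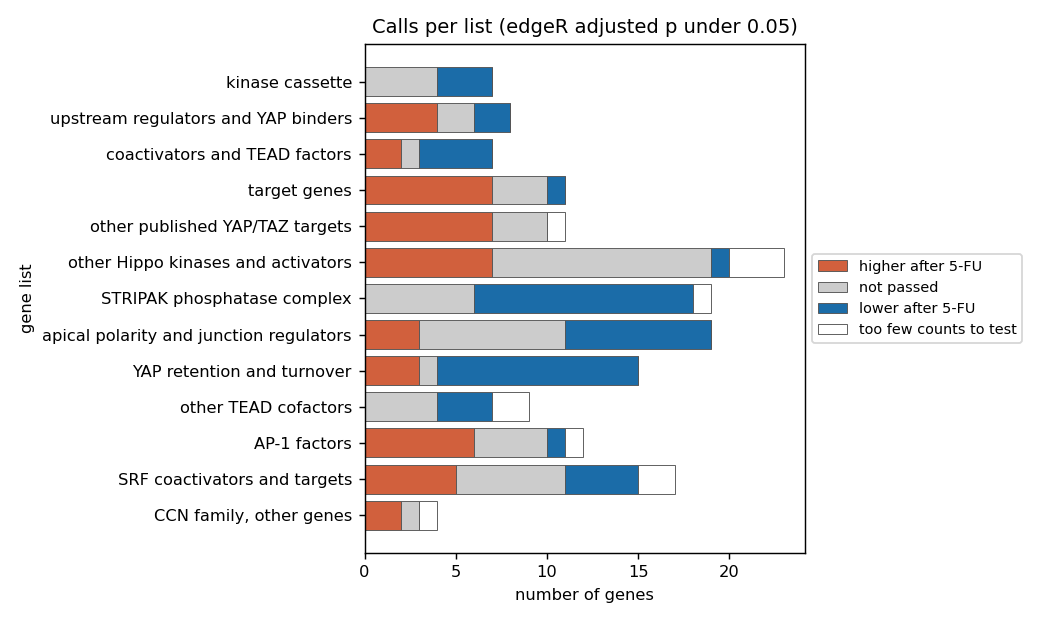
Number of genes per list called higher (orange) or lower (blue) after 5-FU by edgeR at an adjusted p of 0.05, not passed (grey) and with too few counts to test (white), 3 libraries per group. The STRIPAK and YAP retention lists have 12 and 11 genes lower, and the target lists have 7 higher each. Of all tested genes 36.3% were higher and 33.9% lower.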

How the data were processed

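Gene expression was measured by RNA sequencing in 6 libraries of HCT-8. TRIzol extraction was followed by a NEBNext Ultra RNA library kit, per the labels' protocols; by its name the kit keeps no strand. The submitters' processing notes list GRCh38, DESeq2 1.16.1, featureCounts 1.5.0-p3 and HISAT2 2.0.5. The sources used here do not give the strand setting or how multi-mapping reads were treated. The deposited table holds whole-number counts per gene. The deposited FPKM table gives FPKM, which, tested on the values, equal the count divided by gene length and by 1 constant per library; FPKM served only for levels between genes and as an alternative scale. All 58735 identifiers and positions matched GENCODE release 29.

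Counts were tested in edgeR 4.0.16 (R 4.3.3) with filterByExpr (minimum count 10), TMM factors, group as the only term, the quasi-likelihood test and Benjamini-Hochberg adjustment over 19771 genes; genes with an adjusted p under 0.05 were called. CPM use the TMM factors, and each SE is the coefficient without shrinkage over the root of its F statistic. SDs of log2 CPM used a prior count of 2. The scripts were tested on simulated data. Libraries of 1 group differed beyond counting noise (6.26 to 15.5 chi-square units per gene).

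The members and lists were chosen with earlier results of these data known. All 33 members are named, then up to 4 called genes of smallest p per list (the 2 most abundant where none passed) and the most abundant gene per marker list; SFN, USP9X and the epithelial markers beside KRT8 were named after their values were seen. Alternatives were other scalings, filters and prior counts, DESeq2 1.42.0, limma 3.58.1 (voom, and log2 FPKM with pseudocounts of 1 or 0.1), a replicate block, leaving out mitochondrial genes or each library, and moving the 3 dual-role genes. Promoters came from RefSeq, GRCh38.p14.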

Additional observations from a re-analysis of the deposited data

How the results depend on the processing

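Of 23 members called, 13 were called in each of the 18 other settings that tested them, and 8 of the 33 changed sign somewhere. With upper-quartile factors 17 members were higher and 5 lower, the core median was 0.087, the target median 1.05, and the other lists had 59 higher and 23 lower genes; STK3 was at 0.052, STK4 0.0098, SAV1 0.12, MOB1B 0.13, WWC1 0.13, FAT1 0.27, WWTR1 0.055 and CD14 0.24. With plain library totals, which moved the median of all genes by 0.11, FAT1 was at 0.022. With a mean count of at least 50, 16 members were higher and 6 lower, the core median was -0.050, and SAV1 was at 0.011, MOB1B 0.027, WWC1 0.023, FAT1 0.17 and CD14 0.13. With no low-count filter the core median was -0.42, 1 other published target was lower and TNS3 was at -0.083. DESeq2 gave a core median of -0.41, 4 other published targets higher and 1 lower, and TNS3 at -0.081. On log2(FPKM + 1) 4320 genes were higher, 19 in the other lists, 3 other published targets higher and 1 lower, and TNS3 at -0.072; with a pseudocount of 0.1 these were 4268, 19, 3, 1 and -0.076, with a core median of -0.42; with no filter 8 members, 21 genes of the other lists and 3 other published targets were higher and TNS3 was at -0.072. A change of scaling factor alone moves all genes by about the same log2 amount. With upper-quartile factors the median of all genes moved by 0.36. The target median exceeded the core median by 0.96 with TMM factors, upper-quartile factors and plain library totals alike. With a mean count of at least 50 that difference was 0.99. Why values moved in the settings that kept the TMM factors was not tested, nor for DESeq2. The FPKM carry another scaling per library.

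Leaving out 1 library gave 10 to 15 members higher and 10 or 11 lower, and 0 to 1 other published targets lower; TNS3 ranged from -0.027 (without control replicate 2) to 0.10. The target SD ranged from 0.16 to 0.32 with a 5-FU library left out and from 0.12 to 0.18 with a control left out. The difference between the target and core medians was 0.85 to 1.05 over all settings. No pairing by replicate number was visible: deviations of same-numbered libraries correlated at -0.07, -0.20 and 0.06. With 3 libraries a group, these values cannot show whether same-numbered samples were handled together. With the replicate number as a block, 12 members were higher, 10 lower and 1 other published target lower. With 3 libraries a group, an exact permutation test of a single value cannot go below 0.1. Depth limits AMOTL1 and RBMS3, whose controls hold few counts.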
